A study of Caenorhabditis elegans with 2 samples.

Results

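The genes described here are 32 protein-coding genes of Caenorhabditis elegans, listed for ribosome biogenesis and RNA polymerase I. Most encode subunits of RNA polymerase I, proteins of small nucleolar ribonucleoproteins (snoRNPs), or assembly factors of the small or the large ribosomal subunit. The others are ncl-1, a nucleolar regulator, and toe-1, for which no role is assigned here. Roles were assigned from general knowledge of the genes. The 32 were taken from a list of 35 names. The names nol-1, nol-2 and bms-1 had no entry under that symbol in the annotation and were left out. The 32 genes are compared with all 19985 annotated protein-coding genes.

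The data are peak lists from chromatin immunoprecipitation with sequencing (ChIP-seq) of the protein ZK546.5 in whole worms of mixed sex at the second larval stage (L2). All worms came from 1 line, strain OP231, which carries the unc-119(ed3) mutation on chromosome III and the transgene insertion wgIs231, from which ZK546.5 is made with a GFP-FLAG tag at its C terminus. The labels name the antibody only by its target. There was 1 group of 2 biological replicates and no other genotype, stage or treatment, so the data show where the tagged protein was recovered and how alike the replicates were. In whole worms the cell type behind a peak cannot be told. The depth of sequencing is unknown here. On the ce11 build the thresholded list held 491 peaks, and the lists of peaks and background regions held 30000 regions for both replicates pooled, 19076 for replicate 1 and 30000 for replicate 2. The lowest signal listed was 45.9 in the thresholded list, 12.2 in the pooled list, 10.3 in replicate 1 and 5.9 in replicate 2. A gene counted as having a summit when the peak's point of highest signal lay within 1000 bp upstream to 200 bp downstream of one of its annotated 5' ends.

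Ribosome synthesis starts in the nucleolus, where RNA polymerase I transcribes the ribosomal RNA precursor. Box C/D snoRNPs then methylate the precursor and box H/ACA snoRNPs convert selected uridines to pseudouridine, each guided by a small nucleolar RNA. Helicases, GTPases, nucleases and scaffold proteins cut, fold and export the particles as separate small and large subunits. The pathway runs in every growing cell, and its output sets how many ribosomes a larva can build.

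A thresholded ZK546.5 summit was found at 5 of the 32 genes (15.6%, exact 95% interval 5.28 to 32.8), against 2.89% of all protein-coding genes. The 5 genes were wdr-46, fib-1, nol-56, nol-58 and rbd-1. Of these, 3 encode proteins of the box C/D snoRNP and 2 encode factors of the small subunit. No RNA polymerase I gene and no large-subunit factor was among them. All 5 summits were upstream of the 5' end, by 80 to 320 bp. Among all 578 protein-coding genes with a thresholded summit, 560 had their best summit upstream. The interval covers counting error only. No test was made of the list, which was put together with earlier results of these data known.

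The sequences around the summits are shown for the members on which the results turn, 50 bp to either side of the pooled summit, 5' to 3' on the strand of the gene. Capitals mark each stretch of 6 or more letters of a word that the fib-1 and nol-56 summits share, on either strand. The windows are wdr-46 at chrIV:12372024-12372124 (plus strand), fib-1 at chrV:15002253-15002353 (minus strand), nol-56 at chrV:10353182-10353282 (minus strand) and rbd-1 at chrIV:12724761-12724861 (plus strand), all with a thresholded peak. Next to them is lpd-7 at chrIII:7573012-7573112 (plus strand), the strongest large-subunit member, which has none. The last is snu-13 at chrII:10658874-10658974 (minus strand), a box C/D protein gene outside the 32. The bases are those of the RefSeq copy of WBcel235, the same sequence as ce11.
wdr-46: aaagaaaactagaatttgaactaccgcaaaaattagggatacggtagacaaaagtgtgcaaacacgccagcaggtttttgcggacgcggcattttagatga
fib-1: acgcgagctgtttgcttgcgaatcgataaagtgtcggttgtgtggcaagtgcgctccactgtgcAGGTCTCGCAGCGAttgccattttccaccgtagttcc
nol-56: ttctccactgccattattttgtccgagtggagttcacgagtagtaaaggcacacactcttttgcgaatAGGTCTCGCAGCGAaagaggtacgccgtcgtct
rbd-1: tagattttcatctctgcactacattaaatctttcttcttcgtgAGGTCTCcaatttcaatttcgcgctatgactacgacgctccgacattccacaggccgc
lpd-7: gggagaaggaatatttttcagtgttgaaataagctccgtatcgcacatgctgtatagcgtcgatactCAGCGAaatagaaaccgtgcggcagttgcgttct
snu-13: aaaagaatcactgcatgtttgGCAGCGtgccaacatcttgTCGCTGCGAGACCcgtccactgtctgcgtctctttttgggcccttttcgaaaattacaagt

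The box C/D snoRNP members all had a thresholded peak, with pooled signals from 65.4 to 73.3. The gene fib-1 (WBGene00001423) encodes fibrillarin, the methyltransferase of the particle. Its peak at chromosome V, 15002125 to 15002480, had a pooled signal of 73.3, with 48.3 in replicate 1 and 23 in replicate 2. The signal is the authors' own value for each peak against a control library and is not scaled between lists, so only ranks are compared across lists: fib-1 ranked 258 in the pooled list, 222 in replicate 1 and 435 in replicate 2. Its summit lay 80 bp upstream of the 5' end, and the replicates placed it 2 bp apart. The same peak was 240 bp upstream of mut-15, which is transcribed the other way.

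The gene nol-56 (WBGene00010627) encodes a scaffold protein of the same particle. Its peak at chromosome V, 10353054 to 10353409, had signals of 69.3 in the pooled list, 47.5 in replicate 1 and 21 in replicate 2, with ranks of 282, 228 and 499 in that order. The summit was 254 bp upstream and in no other coding gene's window, and the replicates placed it 80 bp apart, the widest gap of the 5. The nol-56 transcript unit also contains 4 annotated snoRNA genes on its own strand. Among the 32 genes 2 host a snoRNA gene on their strand (6.25%, nol-56 and utp-20), against 0.796% of all protein-coding genes.

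The gene nol-58 (WBGene00020915) encodes the partner scaffold protein of nol-56. Its peak had signals of 65.4, 39.7 and 23.5 and ranks of 298, 304 and 416 in the pooled list, replicate 1 and replicate 2. The summit was 320 bp from the 5' end of nol-58 but 12 bp from that of zip-4, transcribed the other way, so by distance alone it belongs to zip-4. The snoRNP member without a thresholded peak was dkc-1, which encodes the pseudouridine synthase of box H/ACA particles. It was in every other list but low, with signals of 17.6, 12.2 and 7.2 and ranks of 11122, 11682 and 19908 in the pooled list, replicate 1 and replicate 2. Its replicate summits were at the same base, 122 bp upstream.

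**Figure D1:**
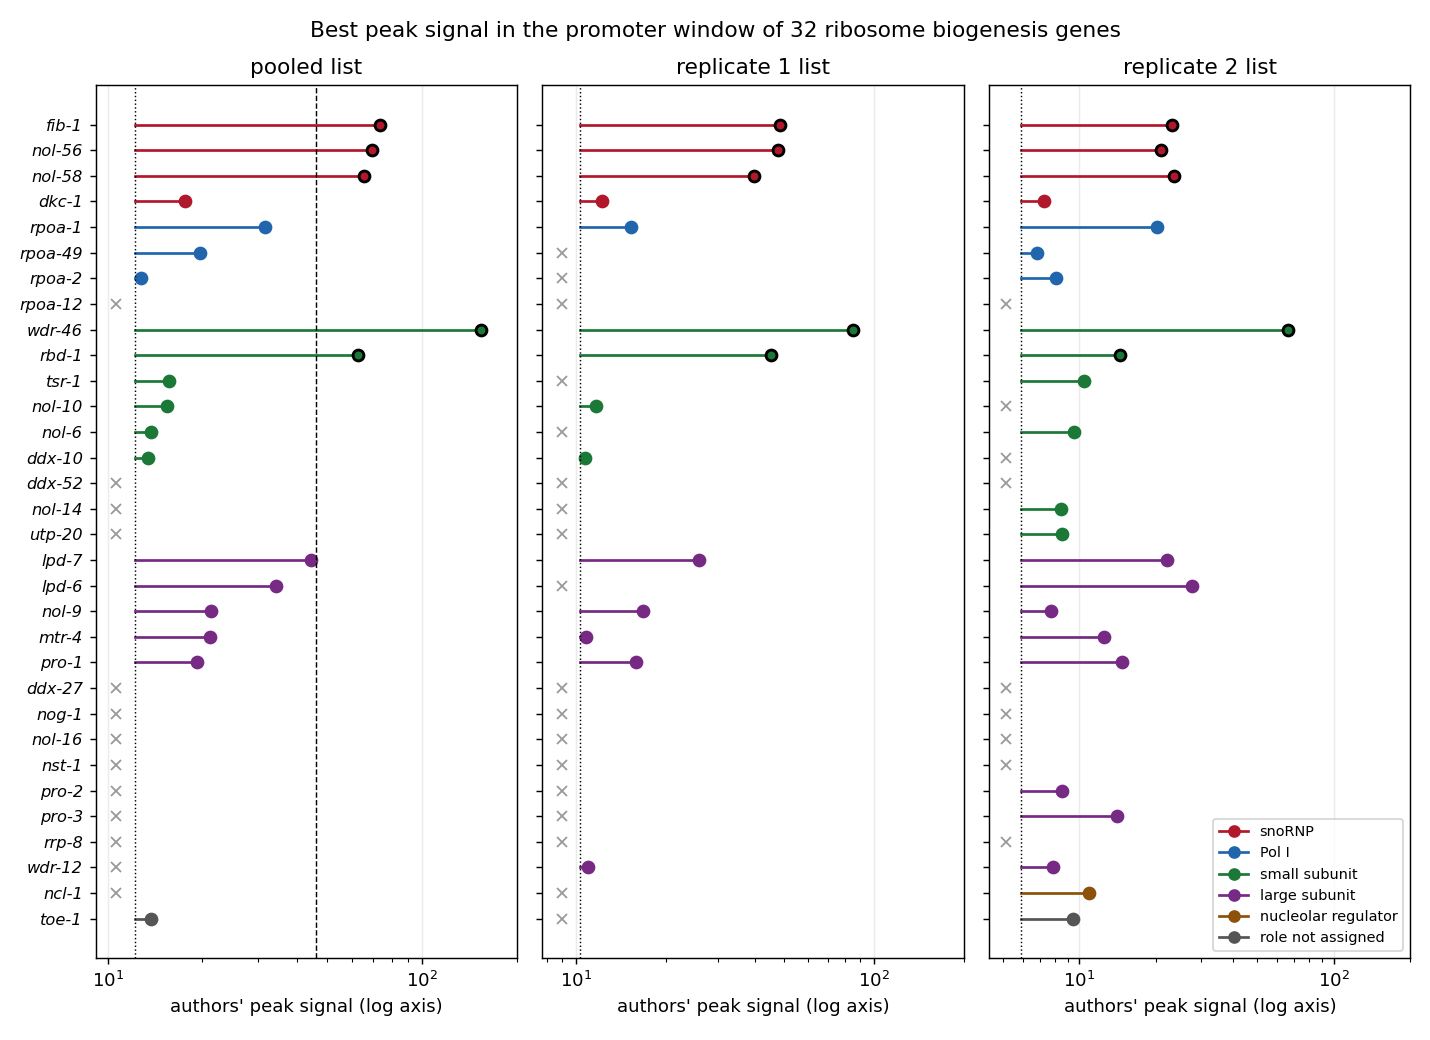
Highest peak signal in the promoter window of each of the 32 genes (rows, grouped and coloured by role) in the pooled list, replicate 1 and replicate 2, each on its own log axis. Dotted lines are the lowest signal of each list, the dashed line is the lowest thresholded signal (45.9), crosses are genes with no summit listed and black rims are the 5 genes with a thresholded peak. The 3 box C/D genes sit at 65.4 to 73.3 in the pooled list, above dkc-1 at 17.6, and wdr-46 is highest in all 3 panels.

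Small-subunit factors had the highest peak of all members and also some of the lowest. The gene wdr-46 (WBGene00009211), whose yeast counterpart is a component of the small-subunit processome, had a peak at chromosome IV, 12371990 to 12372138. Its signals were 154.6 in the pooled list, 85 in replicate 1 and 66.3 in replicate 2, the highest of any member in each. Its ranks were 109, 119 and 107, and its summit lay 179 bp upstream, in no other coding gene's window, with the replicate summits 9 bp apart.

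The gene rbd-1 (WBGene00004315) encodes an RNA-binding protein needed for processing of the small-subunit RNA. Its peak at chromosome IV, 12724633 to 12724988, depended more on 1 replicate. Signals were 62.7 in the pooled list, 45.2 in replicate 1 and 14.4 in replicate 2, and ranks were 319, 250 and 1696. The summit was 175 bp upstream of rbd-1 and 51 bp from the 5' end of T23F6.3 on the other strand. The other 7 small-subunit genes had no thresholded summit. Of these, tsr-1, nol-10, nol-6 and ddx-10 had pooled signals from 13.4 to 15.7, and nol-14, utp-20 and ddx-52 were not in the pooled list. In all, 6 of the 9 small-subunit genes were in the pooled list (66.7%), against 40.8% of all protein-coding genes.

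RNA polymerase I genes were not in the thresholded list (0 of 4, exact 95% interval up to 60.2%, against 2.89% of all protein-coding genes), and 3 of 4 were in the pooled list, against 40.8%. With 4 genes a count of 0 does not set the group apart from that share. The largest subunit gene rpoa-1 had a pooled signal of 31.6 and ranked 1074. Its signals were 15.3 in replicate 1 and 20.1 in replicate 2, with ranks of 5055 and 540, so replicate 2 placed it close to its strongest 491 regions and replicate 1 far from them. Both replicates nevertheless located its summit within 1 bp of each other, 49 to 50 bp upstream of the 5' end. The second-largest subunit gene rpoa-2 (12.8) and rpoa-49 (19.6) were in the pooled list and in replicate 2 but not in replicate 1. At rpoa-49 the replicate 2 summit (signal 6.8, rank 22920) lay 1026 bp from the pooled one, so neither replicate list held the pooled summit. The rpoa-2 summit was 725 bp from that gene and 142 bp from prom-1. The small subunit gene rpoa-12 was in no list, and the nearest pooled summit was 1999 bp from its 5' end.

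Of the 13 large-subunit factors none was in the thresholded list (exact 95% interval up to 24.7%), which includes the 2.89% of all protein-coding genes. The members nearest to its lowest signal were lpd-7 and lpd-6. The gene lpd-7 encodes the homologue of pescadillo, a scaffold of large-subunit assembly. Its pooled signal of 44.4 was just under the lowest thresholded one (45.9), with a pooled rank of 517, signals of 25.8 and 22.1 in replicates 1 and 2 and ranks of 634 and 461. The summit was 288 bp upstream of lpd-7 and 231 bp from rpl-9, a large-subunit ribosomal protein gene transcribed the other way. The gene lpd-6, the homologue of a factor of large-subunit RNA maturation, differed between replicates. It had a signal of 27.6 and rank 311 in replicate 2 and no summit in its window in replicate 1, and in the pooled list it had 34.3 and rank 865.

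The other large-subunit members were lower or not listed. Of all 13, 5 had a pooled summit (38.5%), against 40.8% of all protein-coding genes, so their share was close to the general one. The gene mtr-4, which encodes the RNA helicase of the nuclear exosome, had a pooled signal of 21.2, and nol-9, which encodes a polynucleotide kinase, had 21.3. The gene pro-1 had 19.3. The pooled list had no summit at the nucleostemin GTPase gene nst-1, the GTPase gene nog-1, the rRNA methyltransferase gene rrp-8, wdr-12, pro-2, pro-3, nol-16 or ddx-27. Also not in the pooled list was ncl-1, which encodes a B-box protein that restrains nucleolar size, and toe-1, for which no role is assigned here, had 13.7. The gene rrp-8 overlaps the end of nog-1 by 10 bp on the same strand, and wdr-12 overlaps mff-2 by 1 bp in the same way, so their windows lie within the gene before them.

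The lists differed in how many members they held. The pooled list had a summit at 19 of the 32 genes (59.4%, exact 95% interval 40.6 to 76.3), against 40.8% of all protein-coding genes. Replicate 1 had one at 14 (43.8%, 26.4 to 62.3), against 29.4%, and replicate 2 at 23 (71.9%, 53.3 to 86.3), against 41.1%. The intervals of the pooled list and replicate 1 thus include the share of all protein-coding genes. With each peak given only to the nearest coding 5' end, the pooled count was 14 (43.8%, against 36.1%). A summit in both replicate lists was found at 12 of the 32 genes, against 3633 of 19985 protein-coding genes (18.2%). None was found in any list at 7 of the 32. Those 7 were rpoa-12, rrp-8, nog-1, nst-1, nol-16, ddx-27 and ddx-52. Another 6 were in a replicate list but not in the pooled one. In replicate 2 their signals were 14.1 at pro-3, 10.9 at ncl-1, 8.5 at pro-2 and utp-20, 8.4 at nol-14 and 7.9 at wdr-12. Of these wdr-12 was the one also in replicate 1 (11). For neither the 7 nor the 6 was the share of all protein-coding genes computed, so these counts describe the members only. When protein-coding genes were ordered by their best pooled signal, 8 of the 32 were among the first 1998 of all 19985. By replicate 1 alone it was 7 and by replicate 2 alone 11. With as many of the strongest regions as the thresholded list holds, each replicate alone gave 5 members (15.6%), against 2.77% of all protein-coding genes in each. Replicate 1 gave the 5 thresholded ones. Replicate 2 gave wdr-46, fib-1 and nol-58 of these, with lpd-6 and lpd-7 in place of nol-56 and rbd-1. For the 12 genes in both replicate lists, signals had a Spearman correlation across genes of 0.74 and a Pearson correlation of log2 signals of 0.80, against 0.52 and 0.88 over the 3633 protein-coding genes in both lists. Over the 7 of these without a thresholded peak the values were 0.39 and 0.62. Each gene's best signals were paired whether or not the replicates placed the summit at the same position. The paired summits were 5154 bp apart at nol-9, 307 bp at mtr-4, 270 bp at pro-1 and 240 bp at wdr-12. Genes are not independent replicates, and all lists were made with the same control file.

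**Figure D2:**
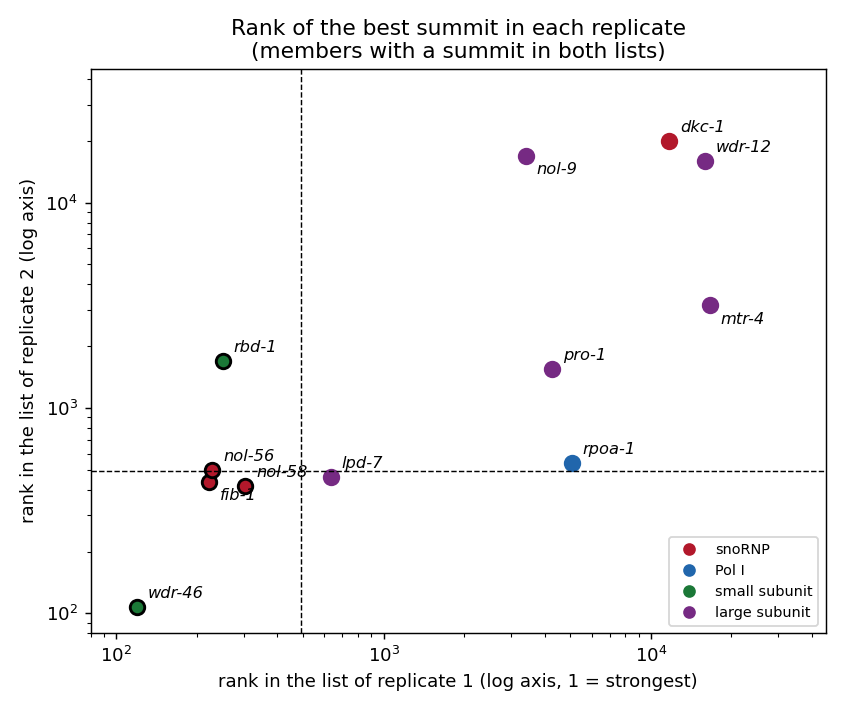
Rank of the best summit in replicate 1 (horizontal) and replicate 2 (vertical), both on log axes with 1 the strongest, for the 12 members with a summit in both lists; black rims are thresholded peaks and dashed lines are rank 491. The genes wdr-46, fib-1 and nol-58 lie inside both lines, nol-56 misses the line of replicate 2 at 499, and rbd-1 at 1696 and rpoa-1 at 5055 differ between replicates.

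Within the window used, most summits were upstream of the 5' ends. The best pooled summit was upstream at 17 of the 19 listed members, and at 7051 of the 8159 protein-coding genes with one. The window itself reaches 1000 bp upstream but only 200 bp downstream. The members' median was 165 bp upstream (quartiles -271 and -108 bp, negative being upstream), against 322 bp upstream for all 8159. This distance depends on the window: with 2000 bp upstream the members' median was -581 bp, over 26 genes. The replicate summits were 2 to 80 bp apart at the 5 thresholded members and 30 bp apart at lpd-7. They were 307 bp apart at mtr-4, where replicate 2 lay 5 bp from the pooled summit and replicate 1 lay 302 bp from it. At pro-1 they were 270 bp apart, and 552 and 822 bp from the pooled summit in replicates 1 and 2. At nol-9, which has more than 1 annotated 5' end, the replicates' best summits were at different ends.

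**Figure D3:**
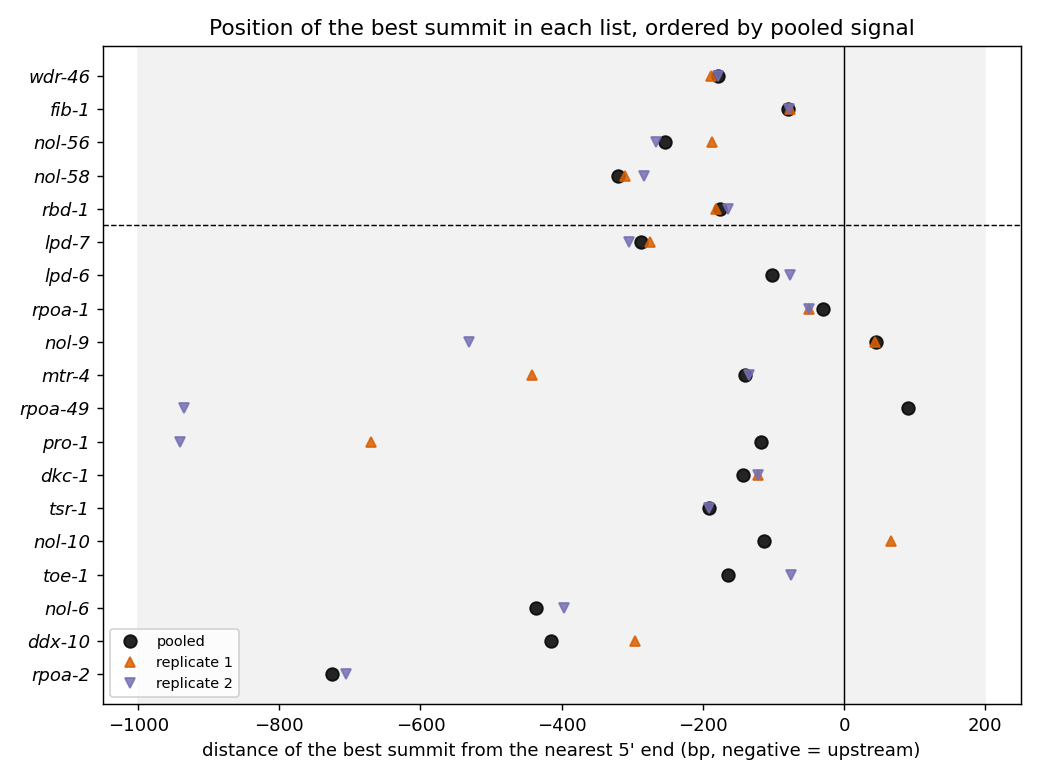
Distance in bp of the best summit from the nearest 5' end for the 19 members in the pooled list, ordered from the highest pooled signal at the top; circles are the pooled list, upward triangles replicate 1 and downward triangles replicate 2, and the dashed line separates the 5 thresholded members. In those 5 the 3 markers lie within 80 bp of each other, and in pro-1, rpoa-49 and nol-9 they are far apart.

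Most members have a near neighbour. For 15 of the 32 (46.9%) the nearest upstream coding gene is on the opposite strand, within 1000 bp or overlapping the member's start. The share of all protein-coding genes is 21.3%. This class includes rpoa-49, which a gene on the other strand overlaps by 1177 bp. Within the class 3 of 15 members had a thresholded summit (20%), against 7.5% of all protein-coding genes of the class. A further 12 members (37.5%, against 30.7% of all protein-coding genes) have a same-strand coding gene that ends within 1000 bp upstream or overlaps their start. Of these, 2 had a thresholded summit (16.7%, against 2.19%). Of the 5 members with no coding gene within that distance, none had one, against 1.3% in general. With each peak given only to the coding gene with the nearest 5' end, fib-1, nol-56 and wdr-46 kept theirs and the count was 3 (9.38%, against 1.91% of all protein-coding genes). Measured from the most upstream 5' end only, the 27 members without a thresholded summit were 3390 to 303526 bp from the nearest one. The median was 86864 bp. From another of its 8 annotated 5' ends, ncl-1 had a thresholded summit within 2000 bp.

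Further genes, listed by symbol for the pathway, are set beside the members here. From this list of further ribosome biogenesis, exosome and snoRNP genes, 7 of 38 had a thresholded summit (18.4%, exact 95% interval 7.74 to 34.3). The highest signal was at larp-1 (97.7), for which no role in the pathway is assigned here. Next were eif-6 (79.7), which encodes a factor that keeps the large subunit from joining too early, and ruvb-2 (76.7), which encodes a helicase of snoRNP assembly. Then came snu-13 (60.1), which encodes the small RNA-binding protein of box C/D particles, the exosome gene exos-4.1 (53.5), nola-3 (51.9), which encodes a small box H/ACA protein, and the exosome gene exos-2 (50.8). The summits of larp-1 and nola-3 were 640 and 610 bp away, with another coding gene nearer. Those of snu-13 (298 bp) and exos-4.1 (110 bp) were also nearer to another coding gene, at 282 and 97 bp. The eif-6 summit (330 bp) lay in another gene's window too, at 336 bp, while ruvb-2 (130 bp) and exos-2 (88 bp) had theirs alone. The exos-2 peak depended more on 1 replicate, with ranks of 307 in replicate 1 and 6534 in replicate 2. Of the cytosolic ribosomal protein genes, 50 of 81 had a thresholded summit (61.7%). Subunit genes of RNA polymerases II and III had 2 of 16 (12.5%), and mitochondrial ribosomal protein genes 3 of 69 (4.35%). These lists differ in size, and the differences between them were not tested.

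**Figure D4:**
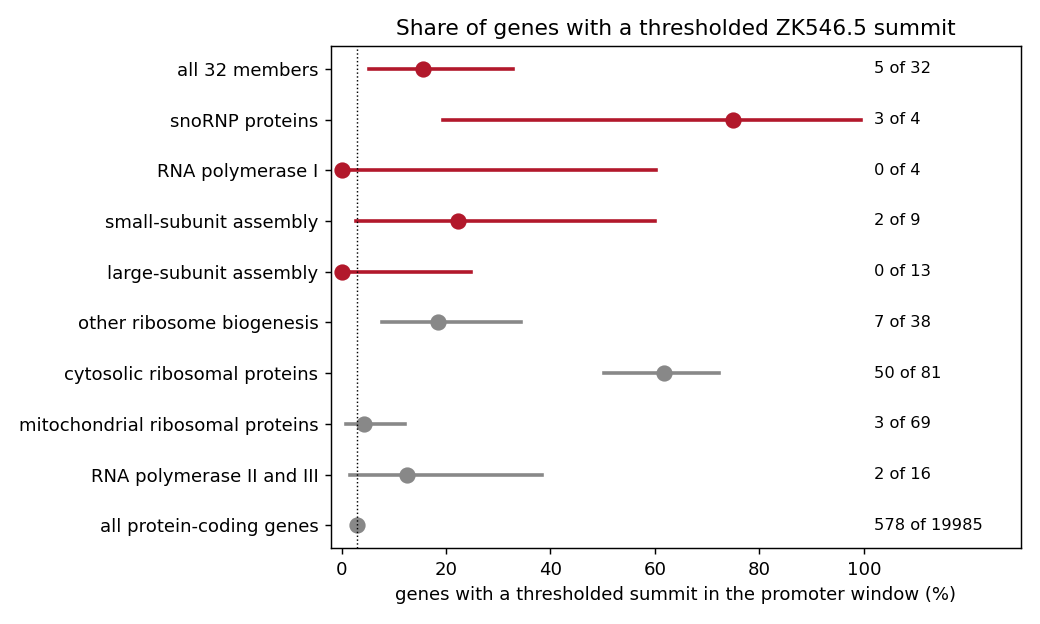
Percentage of genes with a thresholded summit in the promoter window, with exact 95% intervals that cover counting error only, for the 32 members and their role groups (red) and for other lists and all protein-coding genes (grey). The snoRNP group (3 of 4) and cytosolic ribosomal proteins (50 of 81) are the highest, RNA polymerase I and large-subunit factors are at 0, and the dotted line is the 2.89% of all protein-coding genes.

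The core proteins of box C/D particles are encoded by fib-1, nol-56, nol-58 and snu-13, and all 4 genes had a thresholded peak. Setting these 4 together was done after their values were seen. The gene snu-13 had signals of 60.1, 33.8 and 24.1 and ranks of 344, 395 and 394 in the pooled list, replicate 1 and replicate 2. Its summit was 298 bp upstream, and 282 bp from rsp-7, a splicing factor gene. The nol-58 summit was also nearer another gene, zip-4 (12 bp, against 320 bp). The count of 4 thus takes in peaks that lay nearer to other genes.

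The summits of these 4 genes also shared letters. Among all 171 pairs of the 19 members' summit windows, the longest word in common was the 14 letters AGGTCTCGCAGCGA of fib-1 and nol-56, on the strand of both genes and centred 21 and 25 bp downstream of the summits. The longest in any other pair had 12 letters and the median pair shared 8. The summit window of snu-13 held 13 of these letters, GGTCTCGCAGCGA, on its other strand and 4 bp from the summit. Among all 7090 distinct best pooled summits of protein-coding genes 2 held the 14 letters. These were fib-1 and nol-56, from which the word was taken, so that count was fixed in advance. The 13 letters were at 14 (0.197%), of which 10 were among the 379 thresholded ones (2.64%). Cytosolic ribosomal protein genes had them at 1 of 47 thresholded summits (2.13%). In promoters, defined below, the 14 letters were in 7 of 19985 protein-coding genes (0.035%) and the 13 letters in 29 (0.145%). The long words were thus not restricted to box C/D genes.

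The nol-58 window held the 9 letters GGTCTCGCA, on the strand of nol-58 and 14 bp from its summit. That word was in 25 of 379 thresholded summits (6.6%) and in 41 of 7090 pooled ones (0.578%), so it was not restricted to this pathway. Cytosolic ribosomal protein genes had it at 3 of 47 thresholded summits (6.38%). The rbd-1 window held 7 letters, AGGTCTC, 4 bp from its summit, which 2.9% of thresholded and 0.776% of pooled summits held. The 6 letters common to all these genes, GGTCTC, were at 4 of the 5 thresholded members, all but wdr-46, against 21.1% of all thresholded summits, 40.4% of those of cytosolic ribosomal protein genes and 4.23% of pooled ones. Of the further ribosome biogenesis genes 1 of 7 thresholded summits held it (14.3%, snu-13) and 1 of 29 pooled ones (3.45%). In promoters from 250 bases before to 50 after the 5' end, GGTCTC was in 6 of the 32 members (18.8%), against 7.99% of all protein-coding genes. These words were picked after reading the members' summit windows, among them that of nol-58, which is not printed here, and were not tested. The word GGTCTC was chosen as letters shared by 4 members, so finding it at those 4 was fixed in advance. A match is a run of letters and not a measured binding site.

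Other words were counted in the same windows, reading either strand. The E-box CACGTG was at 1 of 19 member summits (rpoa-49), against 1.68% of all pooled summits of protein-coding genes, and the GA repeat GAGAGA at 1 (dkc-1), against 7.76%. The words GGGCGG and TGACGT were at none, against 2.95% and 2.91%. The word GCGCGC was at 2 (nol-58 and mtr-4), against 2.45%, and ATCGAT at 2 (fib-1 and dkc-1), against 3.95%. Within 100 bp of the summit ATCGAT was at 5 of 19 (26.3%, against 7.87%), and in promoters at 9 of 32 (28.1%, against 12.3%). The pyrimidine tract TTTTTC was at 11 of 19 (57.9%), against 45.2%, and at none of the 5 thresholded members, against 22.2% of thresholded summits. Within 100 bp it was at 2 of these 5 (40%, against 68.3%), and in promoters at 30 of 32 members (93.8%, against 78.5%). In promoters CACGTG was also more frequent at members (9.38%, against 5.81%). Less frequent there were GAGAGA (6.25%, against 21.8%), TGACGT (3.12%, against 10.3%), GGGCGG (3.12%, against 7.83%) and GCGCGC (3.12%, against 3.58%). GC content within 50 bp of the summit had a median of 49.5% at the 5 thresholded members, against 48.5% at all thresholded summits, and of 41.6% at the 19 pooled members, against 33.7% at all pooled ones. These differences depended on the window. Within 100 bp the medians were 38.3% at the thresholded members, against 42.3%, and 33.8% at the pooled members, against 34.3%.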

How the data were processed

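Per the records deposited with the samples, the lists for replicate 1, replicate 2 and both pooled were each made from alignments and a control file not analysed here, and the thresholded list came from these 3 by the irreproducible discovery rate. The aligner, the caller, its threshold and the number of reads are not stated in those records. The signal values deposited for each peak were used as the authors wrote them, to order peaks within a list, since lists have no common scale. All 491 thresholded peaks are the strongest pooled regions. In the pooled list 99.6% of summits are at the middle of the region, which limits their precision.

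Coordinates are ce11, read with Ensembl release 115 (WBcel235), and no region ran past a chromosome's end. A gene's best summit is the one with the highest signal in the window of any 5' end. Because trans-splicing removes the start of many worm transcripts, true start sites can be further upstream than the annotated ends. All members may be named; other genes are named where they share a member's peak or belong to the further ribosome biogenesis list. Members and lists were chosen with earlier results of these data known. Symbols of unrelated worm genes were removed from the further list, which still holds larp-1, with no role assigned here. No test was run: counts and medians are set beside those of all protein-coding genes. Exact (Clopper-Pearson) 95% intervals used scipy 1.17.1. The gene assignment was tested on simulated data. Alternatives covered windows, midpoints, nearest ends, the stronger peaks, single replicates and a wider motif window. The ce10 lists were not used.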

Additional observations from a re-analysis of the deposited data

How the results depend on the processing

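The count of 5 members with a thresholded summit stayed at 5, with the same genes, with a window of 500 bp upstream, with midpoints and with the most upstream 5' end only. It was 6 with 2000 bp upstream, where ncl-1 joined, 3 with the nearest coding 5' end only, and 1 (wdr-46) in the stronger part of the thresholded list. The share of all protein-coding genes was 2.41%, 3.64%, 1.91% and 1.5% with 500 bp, 2000 bp, the nearest end and the stronger part. Without replicate 1 and without replicate 2 the count was 5 and the share 2.77%, and 3 and 5 of the thresholded members were among those counted. With 2000 bp upstream the median pooled rank of members was 4195.5 in place of 5378, the median distance -581 bp in place of -165 bp, and the Spearman correlation between replicates 0.50 over 17 genes in place of 0.74; the larger window takes in more distant summits. Within 100 bp of member summits ATCGAT was at 5 in place of 2 and GAGAGA at 2 in place of 1, and the other words were within 1.5 times. No paired analysis was possible because all samples belong to 1 group. Regions under the lowest listed signal are not in the lists, so a member without a summit is below that level and is not shown to be unbound. Intervals cover counting error only, and neighbouring genes can be counted for the same peak.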
